A study of Bos taurus with 6 samples.

Results

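The MAP kinase phosphatases are a branch of the dual-specificity phosphatase (DUSP) family that removes phosphate from the threonine and the tyrosine of the activation loop of MAP kinases and so switches these kinases off. DUSP1, DUSP2, DUSP4 and DUSP5 are nuclear enzymes whose genes are induced by mitogens or stress, and DUSP6 and DUSP7 are cytoplasmic enzymes that act mainly on ERK. DUSP8, DUSP10 and DUSP16 act mainly on JNK and p38. In fibroblasts ERK, JNK and p38 carry growth factor, stress and lipopolysaccharide (LPS) signals, and the phosphatases set how long these signals last.

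MIRA-Seq, which enriches sheared DNA for methylated CpG sites through proteins that bind them, was run on dermal fibroblast cultures of 3 Holstein heifers. Each animal gave a culture at 5 months and a culture at 16 months of age, used at passage 5 without LPS, so that there was 1 library per animal and age (n = 3 per age, 6 libraries). According to the study's methods the animals were mid-level responders to LPS, so they do not cover the extremes of that response. Each value is the number of reads in a window of 3 kb of the bovine genome UMD v3.1. It rises both with methylation and with the density of CpG sites, so a level is no percentage of methylation. The libraries held 19.9 to 43.6 M counted reads, and 1 count per M counted reads (CPM) was 19.9 to 43.6 reads. The share of windows with 0 reads was 6.70% to 32.4%. The libraries of animal 3 stood apart, with TMM scaling factors of 0.718 and 0.850 against 1.03 to 1.22 in the other 4. In its 5-month library the 1% of windows with the most reads held 66.2% of the reads. That share was 57.3% in its 16-month library, within the 50.9% to 59.7% of the other 4.

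The genes were chosen from the age contrast of these libraries, because a window at the start of DUSP7 was lower at 16 months, and the rest of the family was taken with it. The values by age that follow are therefore a description and carry no p, and counts of calls by age are given only to place the genes beside all windows. Every window that the deposited files label with a member was taken, with the window upstream of its start. These were 61 of 902984 windows, 53 of them labelled and 8 upstream. The files label 8 of the 9 genes, among 26107 labelled genes, and no window carries the label DUSP8. DUSP16 had 18 labelled windows, DUSP10 15, DUSP4 6, DUSP5 5 and DUSP7 3, and DUSP1, DUSP2 and DUSP6 had 2 each. The window upstream of DUSP5 carries the label MIR2394. With at least 1 CPM in at least 3 libraries as the condition for a test, 17 of the 61 windows were tested. They were 4 of 16 start windows (the first labelled window and the one upstream) and 13 of 45 windows further into a gene, called body windows here. DUSP1 and DUSP6 had no window tested, and 14 windows had under 10 reads in all 6 libraries.

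The level of the first labelled window differed widely over the family. To set windows side by side, reads were scaled to window length in kb and to M matched reads (RPKM), and all windows have the same length apart from those at contig ends. DUSP7, on the plus strand of chromosome 22, had 0.827 ± 0.382 RPKM (SD, n = 6) in its first window, above 93.7% of labelled genes. DUSP2, the nuclear phosphatase of activated lymphocytes, had 0.369 RPKM, at percentile 85.6. DUSP16, the largest of these genes in windows, had 0.118 RPKM, at percentile 70.9.

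The other 5 genes had little signal at their first window. DUSP6, the ERK phosphatase closest to DUSP7 in function, had 0.0439 RPKM and DUSP5, which acts on ERK in the nucleus, had 0.0427 RPKM, near the median of 0.0475 RPKM over all genes. DUSP4 had 0.0291, DUSP1 0.0262 and DUSP10 0.0192 RPKM, at percentiles 37.0, 34.4 and 26.6. These last values rest on few reads. The first window of DUSP10 had 4, 4 and 2 reads in the 5-month libraries of animals 1, 2 and 3 and 3, 1 and 2 reads in their 16-month libraries, and that of DUSP1 had 4, 6 and 4 against 4, 1 and 4 reads. Counts this small overlap between the genes, so the order of the lowest 3 is not resolved. A count of 0 reads allows up to 3 reads, which is 0.0147 to 0.0308 RPKM in these libraries, counting error only.

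**Figure D1:**
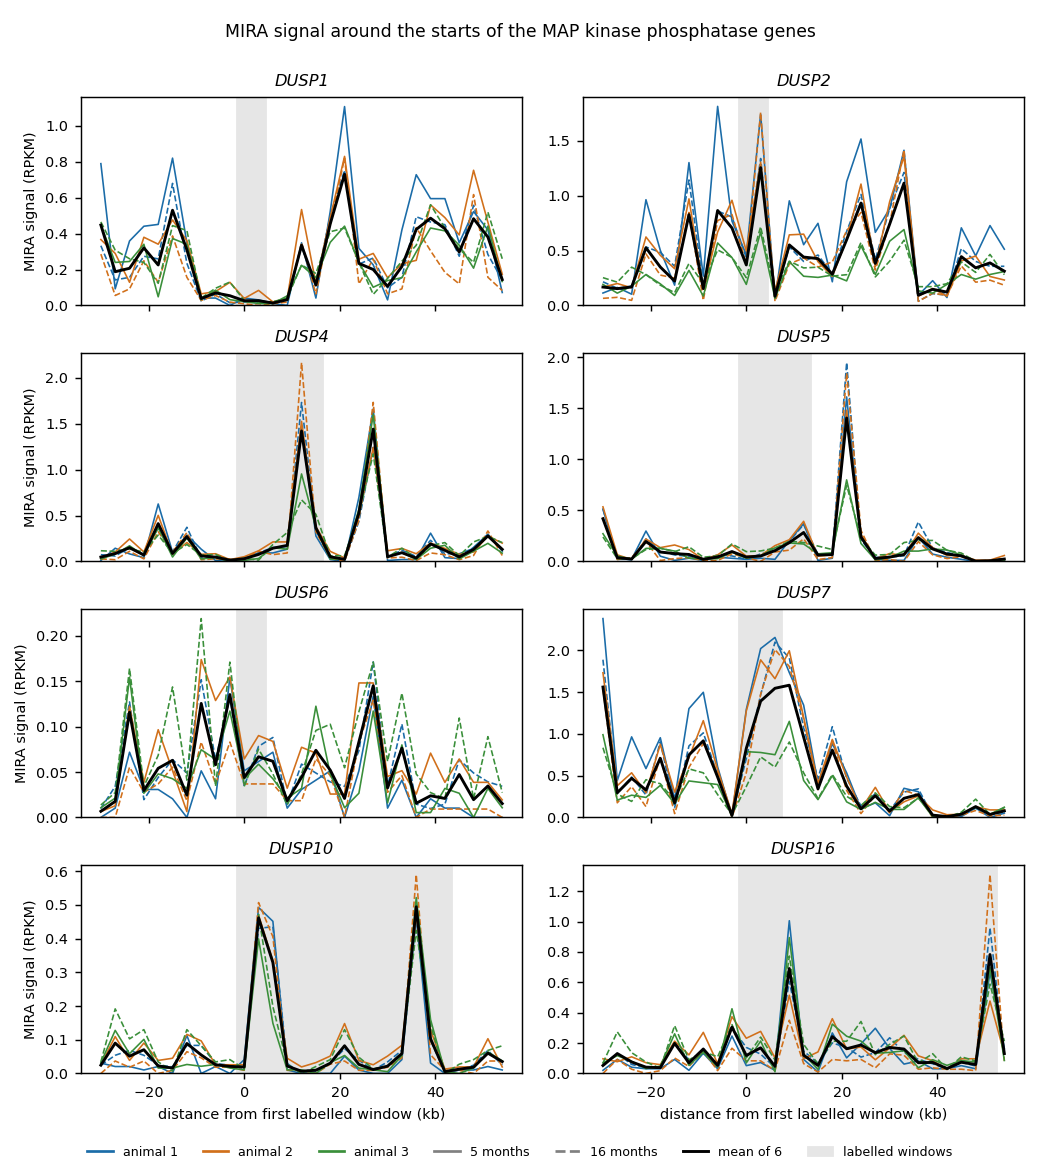
RPKM in 3 kb windows around the first labelled window of the 8 labelled phosphatase genes, by distance in kb along the direction of transcription, with 1 thin line per library, the mean of 6 in black and labelled windows shaded. DUSP7 rose from its upstream window (0.0234 RPKM) to the first window (0.827 RPKM), and DUSP1 lay in a stretch of low signal.

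Start and body were compared within each library, a difference that the rule made no use of. The start of DUSP7 does include its first window, whose values by age the rule used, so the test of DUSP7 is not independent of the choice. The start was the mean of the first and the upstream window and the body the mean of the other labelled windows. The difference was taken on the log2(RPKM + 0.1) scale, which understates differences between low values, and tested by exact sign flips of the 6 library differences (two-sided), with Benjamini-Hochberg adjustment over 20497 genes. The smallest exact p is 0.0312 with 6 libraries, and with the 3 animals as units it would be 0.25. In 5 of 8 phosphatase genes, DUSP7 among them, the start was called lower than the body, where 47.1% of all genes were. Another 1 of 8 was called higher, where 17.8% of all genes were. The median difference was -0.74 over the 8 genes and -0.20 over all genes.

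The start of DUSP7 had 0.657, 0.660 and 0.402 RPKM in the 5-month libraries of animals 1, 2 and 3 and 0.364, 0.267 and 0.202 RPKM in the 16-month libraries. Its body had 2.09, 1.77 and 0.764 RPKM against 1.78, 1.74 and 0.664 RPKM. Every library was lower at the start, by -1.55 ± 0.551 on the log2 scale (exact p = 0.0312, adjusted p = 0.0482). The rule used the values of the first window, so nothing is read from this p. The low value belonged to the upstream window, which had 2, 7 and 3 reads at 5 months and 5, 0 and 5 at 16 months. With the first window alone as the start, DUSP7 was not called (-0.75).

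DUSP4, an inducible nuclear phosphatase of ERK and JNK on the minus strand of chromosome 27, was also lower at the start. Its start lay between 0.00532 and 0.0354 RPKM and its body between 0.327 and 0.553 RPKM, a difference of -2.13 ± 0.208, lower in 6 of 6 libraries. DUSP2 on chromosome 11 had 0.538 ± 0.168 RPKM at the start and 1.26 ± 0.476 RPKM in its body window, a difference of -1.05 ± 0.269, lower in 6 of 6. This body is 1 window.

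DUSP10, the JNK and p38 phosphatase on chromosome 16, had 0.0201 ± 0.00584 RPKM at the start and 0.119 ± 0.0123 RPKM in the body, and DUSP5 on chromosome 26 had 0.0697 ± 0.0417 against 0.156 ± 0.0348 RPKM. Both were lower at the start in 6 of 6 libraries, by -0.87 ± 0.0829 and -0.62 ± 0.363. The difference of DUSP5 was not called with the upstream window alone as the start. DUSP6 went the other way, with 0.0896 ± 0.0187 RPKM at the start and 0.0668 ± 0.0186 RPKM in its body window, higher at the start in 6 of 6 libraries by 0.19 ± 0.0954. This direction came from the upstream window, and with the first window alone it turned to -0.21. The values of DUSP6 rest on few reads. Its first window had 5, 10 and 8 reads at 5 months and 7, 4 and 5 at 16 months. Its body window had 6, 14 and 11 against 16, 4 and 11 reads, and its upstream window 9 to 27 reads per library.

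For DUSP16 the start was lower in 3 of 6 libraries, with 0.212 ± 0.0658 RPKM against 0.190 ± 0.0234 RPKM in the body (0.08 ± 0.254, exact p = 0.5, adjusted p = 0.542). With the upstream window alone it was called higher at the start, by 0.45. With the first window alone DUSP16 turned to -0.46 and was not called. DUSP1, the early response phosphatase, had 0.0401 ± 0.0322 RPKM at the start and 0.0264 ± 0.0298 RPKM in its body window, lower in 2 of 6 libraries (0.15 ± 0.276, exact p = 0.25, adjusted p = 0.292). DUSP1 had 0 to 20 reads per window in a library. The calls lie near the limit of the adjustment. With no minimum of reads 0 genes were called, members included (smallest adjusted p 0.0503, 13319 genes at an exact p of 0.0312), although the differences of the 8 genes were the same. With the median over body windows 0 genes were called as well (smallest adjusted p 0.0550, 11654 of 20497 genes at an exact p of 0.0312). DUSP2, DUSP6 and DUSP7, whose bodies are 1 or 2 windows, kept their differences and an exact p of 0.0312 there. DUSP4 went to -1.18, DUSP5 to -0.55 and DUSP10 to -0.13, and DUSP10 had an exact p of 0.0938. DUSP16 went from 0.08 to 0.48, with an exact p of 0.0312.

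**Figure D2:**
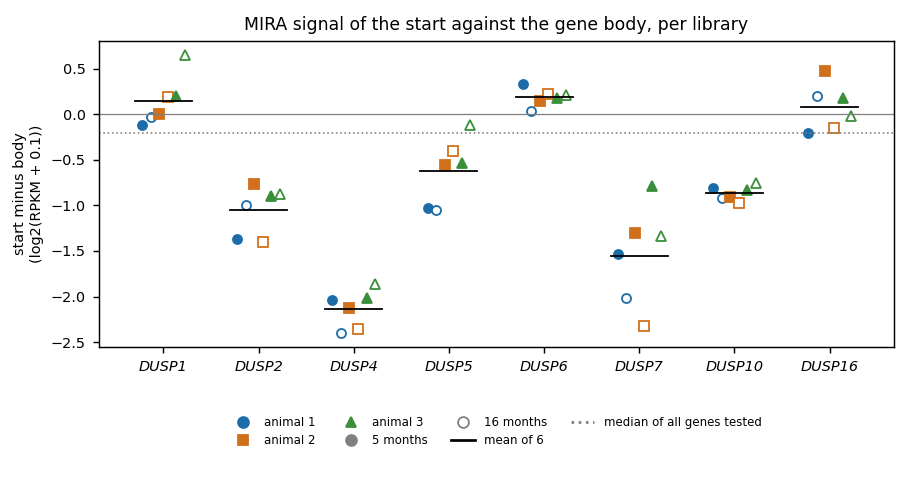
Start minus body of each labelled phosphatase gene on the log2(RPKM + 0.1) scale, 1 point per library (colours for animals, filled for 5 and open for 16 months), with the mean of 6 as a bar and the median of all genes (-0.20) as a dotted line. The start lay under the body in 6 of 6 libraries for DUSP2, DUSP4, DUSP5, DUSP7 and DUSP10, and above it in 6 of 6 for DUSP6.

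Within the bodies the signal was uneven. The windows where the files print a coding entry had more signal than the other body windows in 6 of 6 libraries in 3 of the 4 genes that have both, where 53.1% of 12039 genes did. In DUSP4 the single window with a coding entry had 1.42 ± 0.538 RPKM and the other 4 had 0.190 ± 0.0442 RPKM. In DUSP10 the values were 0.353 ± 0.0189 RPKM in 3 windows and 0.0549 ± 0.0154 RPKM in 11, and in DUSP16 0.273 ± 0.0612 RPKM in 4 and 0.164 ± 0.0436 RPKM in 13. The higher mean in DUSP16 rests on the window at 51 kb (0.783 RPKM). Its other windows with a coding entry, at 21, 39 and 45 kb, had 0.162, 0.0726 and 0.0739 RPKM. The DUSP16 window at 9 kb, without a coding entry, had 0.691 RPKM. DUSP7 had 1 window of each kind, and the order held in 3 of 6 libraries.

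A few windows carried most of the signal of the long genes. In DUSP10 the body windows ranged from 0.00538 to 0.494 RPKM with a median of 0.0285 RPKM, and the highest were those at 3 and at 36 kb from the start. In DUSP16 they ranged from 0.0324 to 0.783 RPKM with a median of 0.136 RPKM. The highest labelled window of DUSP4 was the one at 12 kb in 6 of 6 libraries, whereas in DUSP7 it was the first window in 1 library, the one at 3 kb in 2 and the one at 6 kb in 3.

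The window of DUSP7 that the choice rested on is its first, on chromosome 22 from 49379667 to 49382666. It had 126, 198 and 148 reads in the 5-month libraries of animals 1, 2 and 3 and 144, 58 and 54 reads in the 16-month libraries. Over the tested windows and scaled by TMM factors this was 5.79, 6.56 and 6.41 CPM at 5 months and 3.44, 2.87 and 2.74 CPM at 16 months. All 5-month libraries lay above all 16-month libraries. The means were 6.25 ± 0.406 and 3.02 ± 0.369 CPM (SD, n = 3), and the log2 difference, 5 months minus 16 months, was 1.04 with a standard error of 0.21. In single animals it was 0.68, 1.07 and 1.09. The highest depth in the window was at most 0.370 of its reads, so no single position held most of them.

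In the next windows of DUSP7 the ages overlapped. At 3 kb, from 49382667 to 49385666, the libraries had 9.06, 9.71 and 6.32 CPM at 5 months and 7.16, 7.93 and 5.38 CPM at 16 months, a log2 difference of 0.29 with a standard error of 0.21. Each animal was higher at 5 months there, by 0.32, 0.28 and 0.21. At 6 kb, from 49385667 to 49388666, they had 9.66, 8.55 and 6.11 CPM against 10.2, 10.8 and 4.47 CPM, a log2 difference of -0.01 with a standard error of 0.22, and the animals went both ways.

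**Figure D3:**
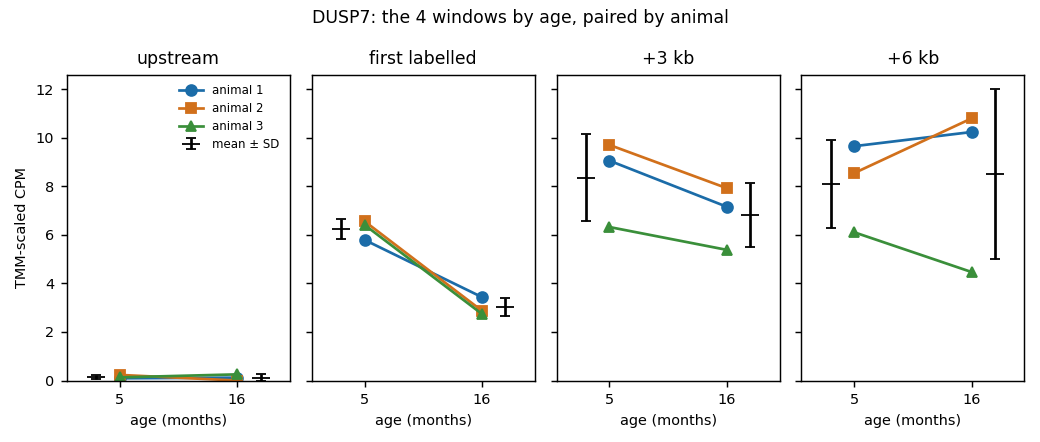
TMM-scaled CPM of the upstream and the 3 labelled DUSP7 windows at 5 and at 16 months, 1 line per animal, with mean ± SD beside (n = 3). In the first window the 5-month libraries lay at 5.79 to 6.56 CPM and the 16-month libraries at 2.74 to 3.44 CPM, and in the windows at 3 and 6 kb the ages overlapped.

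The threshold of the call was an adjusted p below 0.1 and a fold of at least 2, by edgeR's quasi-likelihood test with the animal as a block. Among the 17 tested windows of the family 1 was called, the first of DUSP7, where 0.185% of all tested windows were. It was also the 1 window whose ages did not overlap, where 5.28% did not, and 5 of 17 had 1 direction in all 3 animals, where 26.0% had. By fold, 2.06 lay just inside the threshold, and the next largest of the family, 1.88 in the DUSP16 window at 18 kb, lay outside it with a wider standard error (0.40 against 0.21 on the log2 scale). Over 12 alternative settings its log2 difference was 0.975 to 1.20, and it was called in 5. It was not called without the block (1.04), with other filters or TMM factors from all windows (1.08), or without animal 1 (1.20), 2 (0.982) or 3 (0.975). Without animal 3 the DUSP16 window at 51 kb was called instead, where 1.24% of all tested windows were. That window was higher at 16 months in animals 1 and 2. Nothing is read from these counts, since the rule used this contrast.

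Of the 17 windows 9 were higher at 5 months and 8 at 16 months, with a median log2 difference of 0.0184, against 0.0169 over all tested windows. DUSP2 had 3 windows tested. Its upstream window, from 2254585 to 2257584, had 3.45, 4.94 and 3.55 CPM at 5 months and 3.94, 4.46 and 3.25 CPM at 16 months, a log2 difference of 0.02. The first window gave 0.02 and the one at 3 kb gave -0.07. In none of the 3 windows did the animals share a direction, and at 3 kb the differences were 0.24, -0.46 and 0.03 in animals 1, 2 and 3.

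In DUSP16 the log2 differences ran from -0.59 to 0.91. Its window at 18 kb had 1.20, 1.86 and 2.64 CPM at 5 months and 0.979, 0.495 and 1.57 CPM at 16 months (0.91, standard error 0.40). The one at 51 kb, from 97804706 to 97807705, had 2.99, 2.45 and 5.67 CPM against 4.68, 7.03 and 4.37 CPM (-0.59, standard error 0.22). The animals did not share a direction there, with animal 3 higher at 5 months and animals 1 and 2 at 16 months. The tested windows of DUSP4, DUSP5 and DUSP10 had log2 differences between -0.22 and 0.22.

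**Figure D4:**
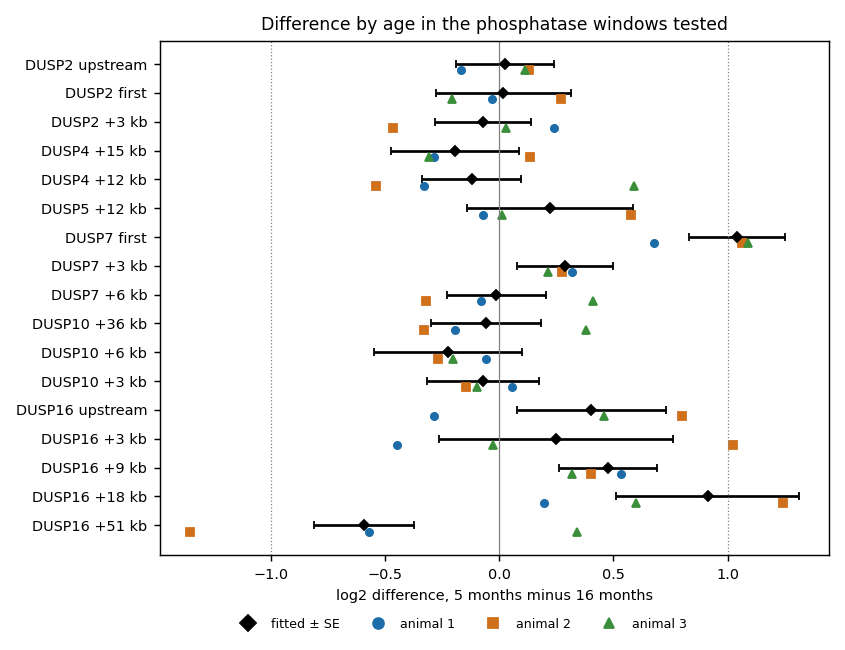
Log2 difference by age (5 months minus 16 months) of the 17 tested windows of the phosphatase genes, with bars of 1 standard error, points for single animals and dotted lines at a fold of 2. The first window of DUSP7 stood at 1.04, and the other 16 lay between -0.59 and 0.91.

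The animals were not used in choosing the genes, so differences between them were tested, with age as a term. Among the 17 windows 4 were called, where 20.6% of all tested windows were. The median span between the highest and the lowest animal was 0.626 on the log2 scale, against 0.630 over all tested windows. All 4 windows had animal 3 highest, as did 81.9% of the windows called over the genome.

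The DUSP16 window at 9 kb, on chromosome 5 from 97762706 to 97765705, had 4.51, 2.65 and 7.28 CPM at 5 months and 2.96, 1.88 and 5.74 CPM at 16 months in animals 1, 2 and 3. The animals kept the same order at both ages, with animal 2 lowest and animal 3 highest, and the span was 1.53 (adjusted p = 1e-05, edgeR's quasi-likelihood test). Its upstream window, from 97750706 to 97753705, had 1.10, 1.92 and 3.47 CPM against 1.46, 0.892 and 2.39 CPM (span 1.11, adjusted p = 0.0272), and the window at 3 kb had a span of 1.79 (adjusted p = 0.0564). The window at 3 kb had 7, 43 and 40 reads at 5 months and 26, 9 and 35 at 16 months. It met the condition for a test in only 3 libraries, both of animal 3 among them, so its call is not independent of that condition. In DUSP4 the window at 15 kb, from 24812367 to 24815366, had 1.24, 1.95 and 2.99 CPM against 1.62, 1.73 and 3.81 CPM (span 1.23, adjusted p = 0.00907).

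These calls depended on scaling and on animal 3. By library size only, the DUSP16 window at 9 kb was called with a span of 1.03 (adjusted p = 0.00729, edgeR), whereas the DUSP4 window at 15 kb had a span of 0.669 (adjusted p = 0.422) and the upstream window of DUSP16 0.553 (adjusted p = 0.547). In all 6 of the 17 were called under that scaling, among them the DUSP7 windows at 3 and 6 kb, where 31436 of 104658 tested windows were. Animal 3 was highest only in the DUSP16 window at 9 kb, by 0.241 over animal 1. It was lowest in DUSP2 at 3 kb, DUSP4 at 12 kb, DUSP7 at 3 and 6 kb and DUSP10 at 6 kb. There its log2 difference to animal 1 was -0.827 to -1.50. DESeq2's test called 2, where it called 15.8% of all. With TMM factors from all windows edgeR called 0 of the 17, where 0.697% of all were called, and 1 had an unadjusted p under 0.05. The DUSP16 window at 9 kb then had a span of 0.878 (adjusted p = 0.619). Without animal 3 the DUSP16 window at 3 kb did not meet the condition for a test. Of the other windows edgeR then called 0, with 1 at an unadjusted p under 0.05, where 1.43% of all were called. Without animal 1 the count was 1, where 20.1% were. The part of the scaling of animal 3 in these differences was not tested.

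The DUSP7 first window had a span of 0.08 between animals (adjusted p = 0.971). The DUSP7 window at 6 kb had a span of 0.907 (adjusted p = 0.0123), at a fold under 2. In the latter the libraries of animal 3, with 6.11 and 4.47 CPM, lay under the other 4.

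**Figure D5:**
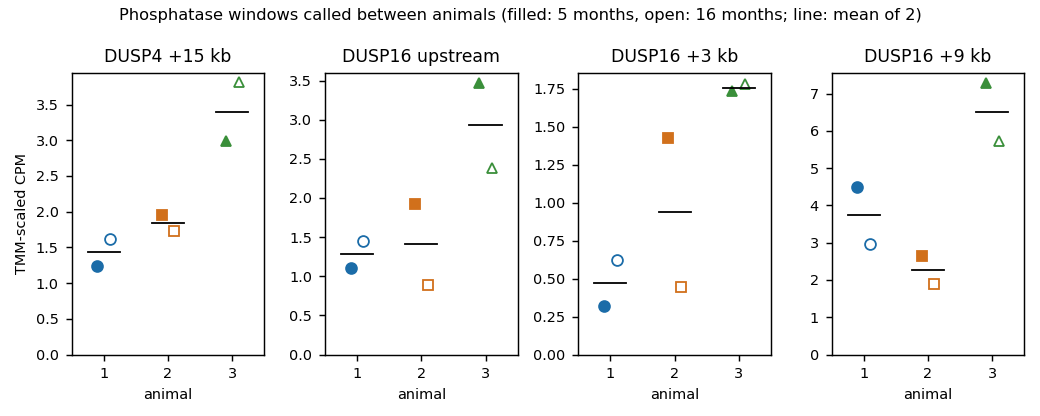
TMM-scaled CPM of the 4 phosphatase windows called between animals, with the 5-month (filled) and the 16-month (open) library of each animal and their mean as a line. In the DUSP16 window at 9 kb the libraries of animal 2 (2.65 and 1.88 CPM) were lowest and those of animal 3 (7.28 and 5.74 CPM) highest.

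The genes around the phosphatases in the pathway were followed at their start windows in 6 lists, which held 98 genes, 95 of them labelled. Of 190 start windows 41 were tested, and edgeR's quasi-likelihood test called 0 by age, while an unadjusted p under 0.05 was found in 4, where 7.10% of all tested windows had one. Their median log2 difference was 0.0168, and 6 of the 41 were called between animals, where 20.6% of all tested windows were. The lists were 17 other dual-specificity phosphatases, 13 MAP kinases, 7 MAP kinase kinases, 18 MAP kinase kinase kinases, 29 kinase substrates or immediate early genes and 14 scaffolds or inhibitors. Of the 91 genes with a start and a body, 59 were called lower at the start and 10 higher, where 47.1% and 17.8% of all genes were.

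The start windows with the lowest p over these lists and the marker lists were named by rule. DUSP13, an atypical member of the family, had 3.05 ± 0.876 CPM at 5 months and 1.59 ± 0.123 CPM at 16 months in its first window (log2 difference 0.91, standard error 0.27, adjusted p = 0.178, edgeR). DUSP9, an ERK phosphatase of the group of DUSP6 and DUSP7, had 1.62 ± 0.609 against 2.93 ± 0.618 CPM, the opposite sign to DUSP7 (-0.89, standard error 0.28, adjusted p = 0.223). It was called without animal 3, where 1.24% of all tested windows were. MAPK3, which encodes ERK1, had 2.41 ± 1.15 against 1.18 ± 0.514 CPM (1.01, standard error 0.34, adjusted p = 0.299). The upstream window of COL5A1, a fibrillar collagen chain, gave 0.58 (adjusted p = 0.402), and the first window of MAPK8IP1, a JNK scaffold, gave 0.56 (adjusted p = 0.445). All 5 had 1 direction in 3 of 3 animals, where 26.0% of all tested windows had, and none passed the threshold. They were picked by the lowest p of a test blocked by animal, so nothing is read from the shared direction.

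Over 9649 tested start windows, those most like the DUSP7 first window by Pearson's r of log2(TMM-scaled CPM + 0.5) over the 6 libraries were LOC100848509 (0.983), LTBR (0.982), LOC100336606 (0.976), LOC100125412 (0.975) and ARMC5 (0.975). In all, 42 had an r above 0.9. Pearson's r takes no account of the size of a difference. LTBR had 1.84 to 2.12 CPM at 5 months and 0.762 to 1.10 CPM at 16 months, whereas LOC100336606 had 2.90 to 2.95 against 2.63 to 2.70 CPM. The 6 values come from 3 animals, share library depth and follow a window that the rule chose by age, so this is a description.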

How the data were processed

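MIRA-Seq libraries of fibroblast cultures from 3 heifers at 5 and 16 months were analysed. The authors aligned quality-filtered reads to UMD v3.1 with NextGENe 2.3.4 and deposited, without normalization, read counts of 3 kb windows. The deposited files also give the highest depth of coverage per window, a signal not scaled to library size, used only beside DUSP7. For PCR copies and multiple matches the treatment was not given in the sources used here, and intervals and floors cover counting error only. Positions and gene labels are those of the files; 1146 windows without a positive length were left out of RPKM. No sequence of this build was used here.

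The members and gene lists were chosen with earlier results of these data known. Windows with at least 1 CPM in 3 of 6 libraries were fitted with edgeR 4.0.16 (R 4.3.3, limma 3.58.1), TMM factors, animal and age, and Benjamini-Hochberg adjustment over 104658 windows. The block left 2 residual degrees of freedom, beside 178 of the prior. Each standard error is the log2 difference over the root of F. The pairing comes from the animals. Deviations from the age means correlated at 0.290, 0.544 and 0.710 within animals 1, 2 and 3. Each culture gave 1 library, so p-values refer to these libraries only. Those of edgeR rest mostly on spread pooled over the tested windows, with 178 prior against 2 residual degrees of freedom. Start and body were compared in genes with at least 30 reads, with Python 3.11.15, numpy 2.4.6, pandas 2.3.3 and scipy 1.17.1, and plots were drawn with matplotlib 3.10.9. The fits were tested on simulated data.

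Named were all members, the pathway start windows called by age or else the 5 with the lowest p, and the 5 start windows most like that of DUSP7. Alternatives were the likelihood-ratio test, DESeq2 1.42.0 (test or size factors), library size only, TMM factors over all windows, other filters and thresholds, no block, each animal left out, and other definitions of start and body.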

Additional observations from a re-analysis of the deposited data

How the results depend on the processing

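By age 194 windows were called over the genome. The count was 24 with DESeq2's test, 99 with library size only, 25 with TMM factors over all windows, 96 with a filter of 0.5 CPM and 2 with no filter. It was 0 with no replicate block (edgeR's quasi-likelihood test, 1282 at an unadjusted p under 0.05), and 14 to 1278 when each animal was left out, the highest without animal 3. By library size only 45 of the 99 were higher at 5 months, against 110 of 194. Between animals 21512 windows were called, against 729 with TMM factors over all windows, 32411 at 0.5 CPM, 221 with no filter and 1476 to 21858 when each animal was left out, the lowest without animal 3. Start and body differed in 13302 genes, against 0 with the median body and 0 with no minimum of reads, where 13319 genes had an exact p of 0.0312 and the smallest adjusted p was 0.0503. DUSP6 turned to -0.21 and DUSP16 to -0.46 with the first window alone. With an animal left out the smallest exact p is 0.125, so no start and body call was possible. The cause of these changes was not tested. Windows under 1 CPM, which hold most of the family, were left untested by age and by animal.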

Other observations

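The surroundings of the phosphatase genes differed in signal. Around DUSP1 the windows from 9 kb before to 9 kb after the first window had 0.0133 to 0.0697 RPKM, and those at 12 kb on either side had 0.310 and 0.335 RPKM. Beyond DUSP7 the signal stayed high, with 1.58 ± 0.447 RPKM (SD, n = 6) in the unlabelled window at 9 kb. At 21 kb from the start of DUSP5, a window labelled LOC614416 had 1.40 ± 0.517 RPKM, above every labelled window of DUSP5.

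At the first windows of marker genes the median was 0.0202 RPKM for fibroblast markers, 0.480 RPKM for keratinocyte, 0.0838 RPKM for leukocyte and 0.205 RPKM for endothelial markers. Single fibroblast markers ranged from 0.000815 to 1.74 RPKM. These are DNA libraries without expression values, so the cell type of the cultures was not checked by them.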
